A study of Mus musculus with 8 samples.

Results

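Hepatocyte-differentiated cultures (iHPs) are hepatoblasts, the bipotent progenitors of the fetal liver, that were taken from mouse embryos at E14.5, plated on collagen and given 12.5 ng ml-1 of oncostatin M for 5 days per the labels. Their RNA was sequenced in 3 of the 8 libraries of the series, 1 of control iHPs, labelled wild type, and 2 of iHPs labelled *Lats1*-/-;*Lats2*f/fl;Alb-cre, hereafter L1L2_Alb. The embryos of every library had a mixed B6;129 background. In L1L2_Alb cells *Lats1* is deleted in the whole animal, whereas *Lats2* is deleted by a Cre under the Albumin promoter, so that only cells that have turned this promoter on lose it. The other 5 libraries came from hepatoblasts left undifferentiated (iHBs, 1 control and 1 L1L2_Alb), and from hepatoblasts (1 control and 2 L1L2_Alb libraries) grown on Matrigel for 14 days toward biliary epithelial cells (iBECs). The iHP libraries were chosen by their labels, and a gene was called higher or lower when it differed from control iHP by at least 1 on the log2(RPKM + 1) scale in the same direction in both L1L2_Alb libraries. RPKM is the read count of a gene divided by its length and by the depth of the library. Of 23467 genes, 13086 reached 1 RPKM on average in these 3 libraries and were compared.

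The question of the comparison is how the hepatocyte programme of these cultures differs when the LATS kinases are deleted. The kinases LATS1 and LATS2 end the Hippo cascade by phosphorylating the co-activators YAP and TAZ, which keeps them out of the nucleus, and without this brake YAP and TAZ act with TEAD proteins on genes of growth, cytoskeleton and matrix. In the liver, high YAP activity is known from biliary cells and low activity from hepatocytes. Oncostatin M, a cytokine of the interleukin-6 family, is used to drive fetal hepatoblasts toward the hepatocyte programme of plasma proteins and metabolic enzymes.

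Neither targeted gene read lower in both L1L2_Alb libraries at the level of whole-gene RNA. *Lats1* read 11.2 RPKM in the iHP control, 22.7 RPKM in the library labelled L1L2_Alb replicate 1 and 7.12 RPKM in replicate 2. *Lats2* was at 10.1 RPKM in the iHP control, against 17.7 and 27.6 RPKM in the libraries of L1L2_Alb. The libraries therefore went opposite ways for *Lats1*, and both read above the control for *Lats2* (adjusted p from limma = 0.205). A value for the whole gene does not separate reads of deleted exons from reads of the exons that remain, and so the genotype is given here as labelled. The substrates *Yap1*, at 26.8 RPKM in the iHP control against 37.5 and 33.3 RPKM, and *Wwtr1*, which encodes TAZ, at 16.6 against 28.2 and 23.2 RPKM, did not reach a difference of 1.

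The libraries held about 27992000 reads for control iHP, 18437000 reads for L1L2_Alb iHP replicate 1 and 21309000 reads for replicate 2, with at most 33229000 reads in any of the 8 libraries, as recovered from the steps of short RNA genes. Hepatocyte markers were present in all 3 libraries, with *Alb*, the gene of albumin, at 3088, 568 and 526 RPKM and *Apoa1* at 4249, 8351 and 6225 RPKM, but the markers went partly against the label. The biliary keratin *Krt7* read 361 RPKM in the iHP control, and its 1361 and 1167 RPKM in the L1L2_Alb libraries exceeded *Alb*, where the urea cycle gene *Cps1* was at 20.95 and 6.24 RPKM against 340 RPKM in the control. The libraries differed in sex-linked RNA. *Xist* was at 28.5 RPKM in control iHP, 34.1 in replicate 1 and 0.0602 in replicate 2, whereas the Y-linked *Eif2s3y* was at 31.3, 0 and 37.3 RPKM. Replicate 2 also stood apart in *Neat1* (56.9 RPKM against 574 and 458 RPKM in the other iHP libraries), *Lars2* (794 against 97.6 and 81.8 RPKM) and *Rn45s* (682 against 201 and 163 RPKM). For these genes it read nearer to the iBEC libraries than to the other iHP libraries. *Lars2* was at 87.1 and 147 RPKM in iHB and 743, 475 and 679 RPKM in iBEC. *Neat1* was at 548 and 508 RPKM in iHB and 118, 172 and 235 RPKM in iBEC. *Rn45s* was at 172 and 312 RPKM in iHB and 513, 789 and 389 RPKM in iBEC. The difference of replicate 2 from replicate 1 ran from a median of 0.256 in the shortest of 5 length classes to -0.168 in the longest. In the control iHP library, 5 neighbouring genes, *Selenbp2*, *Cgn*, *Pogz*, *Psmb4* and *Selenbp1*, lay above all 7 other libraries. The part of these library features in the differences below was not tested.

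Whether letters bound by known liver and growth factors lie near the start of the genes that differed was looked at in RefSeq promoters of mouse GRCm38.p6, from 250 bases before to 50 bases after each start. The symbols of 8060 of the 13086 genes (61.6%) matched a promoter. The 5 motifs, searched on both strands, were GGAATG (bound by TEAD proteins), GTTAAT (a half-site of HNF1), TTGCNNAA (C/EBP), TTTGAA (the cell cycle homology region of late cell cycle genes) and TTTGGCGC (E2F). None of these strings contains another. The following promoters are printed because they belong to members of the gene groups that the results turn on, with the letters of 1 motif each in capitals, GGAATG in *Cyr61*, GTTAAT in *Alb* and *Afp*, TTTGAA in *Kif11* and TTTGGCGC in *Mcm6*. Matches of other motifs, such as TTGCNNAA in *Alb* and both TTGCNNAA and TTTGAA in *Afp*, are left in lower case. *Cyr61* (a YAP target, given as Ccn1 in RefSeq) lies at chr3:145649936-145650235 on the minus strand, *Alb* at chr5:90460620-90460919 and *Afp* at chr5:90490464-90490763 on the plus strand, *Kif11* (a mitotic kinesin) at chr19:37376132-37376431 on the plus strand and *Mcm6* (a subunit of the replicative helicase) at chr1:128359656-128359955 on the minus strand. Each is written from 5′ to 3′ on the strand of its gene.
Cyr61: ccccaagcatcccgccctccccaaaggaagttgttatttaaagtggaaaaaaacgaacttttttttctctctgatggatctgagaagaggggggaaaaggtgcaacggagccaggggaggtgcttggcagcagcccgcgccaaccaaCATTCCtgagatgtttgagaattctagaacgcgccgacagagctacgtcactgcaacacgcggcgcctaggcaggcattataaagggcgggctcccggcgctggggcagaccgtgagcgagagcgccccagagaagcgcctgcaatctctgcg
Alb: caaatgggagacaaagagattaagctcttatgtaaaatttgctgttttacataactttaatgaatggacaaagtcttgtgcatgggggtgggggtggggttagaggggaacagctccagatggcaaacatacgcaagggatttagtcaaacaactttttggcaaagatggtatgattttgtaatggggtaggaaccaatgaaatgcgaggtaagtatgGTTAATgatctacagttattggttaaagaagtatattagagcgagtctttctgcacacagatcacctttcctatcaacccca
Afp: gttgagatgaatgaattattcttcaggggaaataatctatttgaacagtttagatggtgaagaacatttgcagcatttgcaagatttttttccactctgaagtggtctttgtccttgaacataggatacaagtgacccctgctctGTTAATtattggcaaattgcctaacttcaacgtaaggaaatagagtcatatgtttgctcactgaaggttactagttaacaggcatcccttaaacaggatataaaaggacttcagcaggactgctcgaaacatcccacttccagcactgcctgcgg
Kif11: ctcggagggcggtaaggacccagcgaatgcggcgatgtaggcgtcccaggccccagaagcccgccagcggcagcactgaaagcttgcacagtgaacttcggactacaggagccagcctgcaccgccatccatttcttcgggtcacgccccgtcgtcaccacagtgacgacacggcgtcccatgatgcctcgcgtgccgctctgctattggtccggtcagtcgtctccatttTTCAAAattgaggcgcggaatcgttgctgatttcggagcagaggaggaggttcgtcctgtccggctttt
Mcm6: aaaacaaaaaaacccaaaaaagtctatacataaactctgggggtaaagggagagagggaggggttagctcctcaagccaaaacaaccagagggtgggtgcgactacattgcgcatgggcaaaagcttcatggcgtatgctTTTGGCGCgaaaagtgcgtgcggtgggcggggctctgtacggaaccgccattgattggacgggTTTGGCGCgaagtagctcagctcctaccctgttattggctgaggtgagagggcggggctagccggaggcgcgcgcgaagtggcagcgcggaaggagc
The *Cyr61* promoter held GGAATG once, on the other strand, with its first base 103 bases before the start, and *Mcm6* held TTTGGCGC at 110 and 47 bases before it. *Kif11* held TTTGAA once, also on the other strand and so printed as TTCAAA, from 19 bases before the start. GTTAAT was in the promoters of both *Alb* and *Afp*, neighbours on chromosome 5 whose RNA behaved differently in these cultures. GGAATG was found in 15.3% of matched promoters of higher genes, 13.8% of lower genes, 12.1% of all compared genes and 14.6% of all 22862 promoters. GTTAAT was in 9.56% of promoters of lower genes against 4.3% of higher and 4.32% of all compared genes, and in 10 of 17 matched plasma protein genes. Among these 10 were *Serpina1a*, *Serpina1b*, *Serpina1c* and *Serpina1d*, paralogues that are not separate cases. TTTGAA was in 19.0% of lower, 11.8% of higher and 12.2% of compared genes, and in 15 of 20 mitosis genes. TTGCNNAA was in 13.9% of lower and 8.87% of higher genes against 8.68% of compared genes, and TTTGGCGC in 1.94% and 0.269% against 1.03%. A match says only that the letters are there, and the shares over all promoters, 7.35% for GTTAAT and 18.5% for TTTGAA, were nearer to those of the lower genes than the shares over compared genes were.

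In both L1L2_Alb iHP libraries 627 genes were higher (4.79% of the compared genes) and 1063 were lower (8.12%). These shares are the background for the counts of each gene list below. Where genes of hepatocyte function, of granulocytes and fibroblasts, and of DNA replication and mitosis passed the threshold, they lay mostly on the lower side, and those of YAP/TAZ targets and mesothelium mostly on the higher side. Replicate 1 alone had 918 genes higher and 1406 lower, and replicate 2 alone 1482 and 1976. A difference of at least 2 was reached in both libraries by 117 genes upward and 314 downward. The thresholds fell within a continuous spread, in that *Sdcbp* was just inside with differences of 1.00 and 1.67 and *Col4a2* just outside with 1.01 and 0.9977. Among the lower genes *Csrp2* was just inside (-1.92 and -1.0001) and *Ndc80* just outside (-0.9995 and -1.55). Of 5 classes of equal size by mean level in the iHP libraries, the highest held 230 higher and 117 lower genes and the lowest held 63 and 437. This mean includes the L1L2_Alb libraries, so lower genes are drawn toward the low classes and higher genes toward the high ones. The class counts therefore cannot show whether the direction depends on level.

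**Figure D1:**
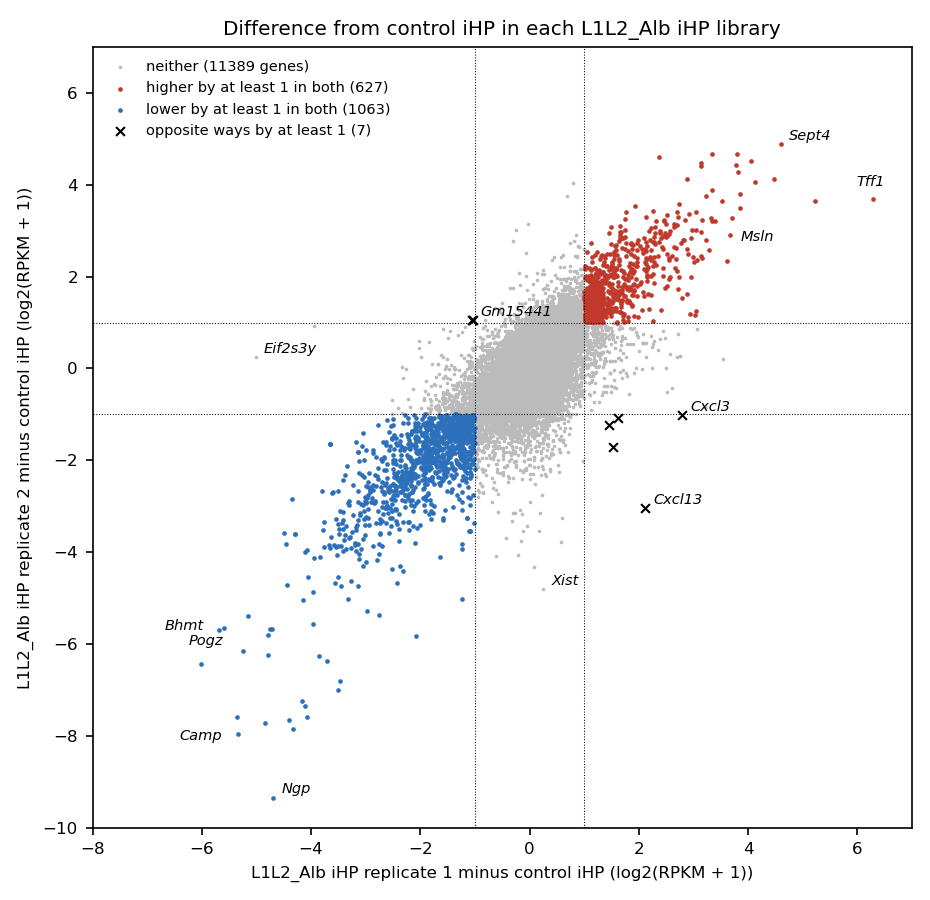
Each point is 1 of the 13086 compared genes, with its difference from control iHP on the log2(RPKM + 1) scale in L1L2_Alb iHP replicate 1 (x axis) and replicate 2 (y axis), and dotted lines at -1 and 1. The 627 higher genes are at the upper right, the 1063 lower genes at the lower left, and 7 genes (crosses) went opposite ways by at least 1.

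Both differences rest on the same control library, so they are not independent of it. The labels do not say how many embryos or cultures gave the L1L2_Alb libraries. By the values above, replicate 1 held *Xist* without *Eif2s3y* and replicate 2 held *Eif2s3y* with almost no *Xist*. The 2 libraries thus read as opposite sexes and not as the same embryo. Control iHP held both RNAs, as a pool of both sexes would, unlike either L1L2_Alb library. What this means for the spread of the control was not tested. The test reported here is a limma fit on all 8 libraries, in which the 2 L1L2_Alb pairs (iHP and iBEC) give the spread and the single control library is assumed to vary like them. It called 500 genes at an adjusted p under 0.05, 158 upward (1.21%) and 342 downward (2.61%), all of them among the 1690 higher or lower genes (29.6% of these). In the following, "rose" and "fell" are used for genes that passed this test. Its shares of 1.21% and 2.61% are the background for the limma counts of each list. The call rests on L1L2_Alb iHP replicate 2, because without it limma called 0 genes (2539 at an unadjusted p under 0.05, smallest adjusted p 0.0752), whereas without replicate 1 it called 523. It also called 0 genes with no filter on low values (3041 at an unadjusted p under 0.05, smallest adjusted p 0.0929). The p-values measure the spread between these libraries only. In simulated data, described with the processing, false calls made up a larger share of all calls than the threshold of 0.05.

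The largest rises were mostly of genes with little RNA in control iHP. *Sept4*, a septin of the cytoskeleton, was at 7.25 RPKM in the iHP control, against 199 and 243 RPKM in the libraries of L1L2_Alb. Both L1L2_Alb libraries were thus far above the control, with a mean difference of 4.74 (SD 0.20, n = 2, adjusted p from limma = 0.0131). *Procr*, the endothelial protein C receptor, was at 7.34 against 115 and 212 RPKM, and *Slc39a8*, a zinc and manganese importer, at 10.1 against 183 and 255 RPKM. *Serpinb9b*, an intracellular serine protease inhibitor, was abundant already in the control, at 65.2 RPKM, and reached 950 and 921 RPKM. The chloride channel gene *Clic5* was close to absent in the control (0.603 RPKM) and at 21.6 and 30.2 RPKM in the mutants, and *S100a7a*, a calcium-binding protein of stressed epithelia, went from 0.868 to 40.6 and 31.7 RPKM. *Tff1*, a trefoil peptide secreted by mucous epithelia, had the largest upward difference of any gene in a single library, 6.29, in replicate 1 (528 RPKM against 5.75 in the control), and a smaller one in replicate 2 (86.3 RPKM). *Ms4a4b* was at 5.82 against 118 and 113 RPKM, *4933401H06Rik* at 4.58 against 75.5 and 118 RPKM and *4930486L24Rik* at 2.39 against 126 and 41.7 RPKM. All 10 rose by the limma test (adjusted p from 0.0131 to 0.034).

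The largest decreases mixed hepatocyte genes with granulocyte genes. *Bhmt*, which remethylates homocysteine in hepatocytes, was at 58.6 RPKM in the iHP control, against 0.157 and 0.159 RPKM in the libraries of L1L2_Alb (difference -5.69 in each, adjusted p from limma = 0.00784, the smallest of all genes). *Apoc3*, an apolipoprotein of triglyceride-rich particles, fell from 167 to 2.48 and 2.33 RPKM (mean difference -5.63, SD 0.05, n = 2, adjusted p = 0.0131 by limma). These 2 genes were reduced alike in both libraries. Several granulocyte genes were reduced further in replicate 2 than in replicate 1, with the peroxidase *Mpo* at 225, 4.52 and 0.166 RPKM, the antimicrobial peptide *Camp* at 286, 6.07 and 0.157 RPKM, and *Ltf* (lactoferrin) at 299, 9.46 and 0.428 RPKM. *Prg2*, the major basic protein of eosinophils, fell from 50.6 to 0.453 and 0.224 RPKM (adjusted p from limma = 0.0131). *Chi3l4*, a chitinase-like protein, *Elane* and *Fcnb* completed the group, and of the 10 genes *Bhmt*, *Apoc3*, *Pogz*, *Prg2*, *Ltf* and *Fcnb* passed limma. *Pogz*, at 337 RPKM in the iHP control but 7.88 and 3.74 RPKM, is 1 of the 5 neighbouring genes named above, and it was at no more than 12.3 RPKM in any other library, controls of iHB and iBEC included.

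Genes of plasma proteins, the main secreted product of hepatocytes, were lower as a group. Of 23 compared members, 22 were lower and none was higher, with medians of -2.62 and -2.54 in the 2 libraries against 0.0325 and -0.0132 over all genes. *Vtn* (vitronectin) was at 406 RPKM in the iHP control, against 22.7 and 24.6 RPKM in the libraries of L1L2_Alb, and it fell by limma (mean difference -4.05, SD 0.08, n = 2, adjusted p = 0.0131). *Alb* itself was at 3088 against 568 and 526 RPKM (mean difference -2.50, SD 0.08, n = 2), with an adjusted p from limma of 0.0563. Both mutant libraries lay below the control for both genes, and 71.1% of all compared genes had the same sign in both libraries. Limma called 12 members, among them the protease inhibitors *A2m* (166 RPKM against 9.87 and 8.49 RPKM), *Pzp* (533 against 51.0 and 48.6 RPKM) and *Itih3* (808 against 82.8 and 52.4 RPKM). The exception was *Afp*, the fetal counterpart of albumin, at 4219 RPKM against 2673 and 2603 RPKM, a difference of -0.68 (SD 0.03, n = 2). Against each of the 3 control libraries, an alternative chosen after seeing the data, 15 of the 22 were still lower by at least 1 (3.26% of all genes were, and 2.69% were higher).

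Lipoprotein and blood clotting genes followed the same direction. Of 18 apolipoprotein and lipoprotein assembly genes 13 were lower and none was higher (medians -2.06 and -2.45), and 11 of them fell by limma. *Apof* was at 97.2 RPKM against 5.28 and 2.36 RPKM, *Apoh* at 357 against 30.5 and 33.5 RPKM, *Apoa2* at 221 against 31.3 and 24.95 RPKM and *Apoa5* at 36.8 against 3.44 and 1.496 RPKM. The main protein of high-density lipoprotein, *Apoa1*, stood apart from these, at 4249 RPKM in the control but 8351 and 6225 RPKM in the mutants (differences of 0.97 and 0.55, named after its values were seen). Of 28 coagulation and complement genes 22 were lower and none was higher (medians -1.77 and -2.02, 10 called by limma). *Serpinc1*, which encodes antithrombin, was at 84.0 RPKM against 7.15 and 5.86 RPKM. *F12*, the factor that starts contact activation, was at 112 against 13.2 and 14.1 RPKM and *Mbl1*, a lectin that starts complement, at 28.7 against 1.18 and 1.02 RPKM, so that for all 3 genes both mutant libraries lay far below the control and close to each other.

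Enzymes of amino acid and glucose metabolism lay on the lower side where they passed the threshold. Of 24 genes of the urea cycle and amino acid breakdown 14 were lower and none was higher (medians -1.53 and -1.69). *Cps1*, the first enzyme of the urea cycle, was at 340 RPKM in the iHP control, against 20.95 and 6.24 RPKM in the libraries of L1L2_Alb (mean difference -4.76, SD 1.13, n = 2, adjusted p from limma = 0.0239). The last enzyme of the cycle, *Arg1*, was at 165 against 122 and 188 RPKM and *Asl* at 48.1 against 41.2 and 53.2 RPKM, within 1 of the control (both named after their values were seen). In the methionine cycle *Mat1a*, the adult-type methionine adenosyltransferase, fell from 139 to 8.84 and 7.18 RPKM (adjusted p from limma = 0.0144), beside *Bhmt* above. Of 12 genes of glucose and glycogen metabolism 9 were lower and none was higher (medians -2.15 and -2.12). *G6pc*, which releases free glucose, was at 22.5 against 1.04 and 0.397 RPKM and *Slc2a2*, the hepatocyte glucose transporter, at 14.3 against 0.760 and 2.17 RPKM.

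Bile acid genes were on the lower side only, while xenobiotic genes included both lower and higher ones. Of 8 bile acid genes 5 were lower and none was higher (medians -1.45 and -1.61), led by the bile acid importer *Slc10a1* at 10.2 RPKM against 0.268 and 0.483 RPKM (adjusted p from limma = 0.0148). *Cyp7a1*, the rate-limiting enzyme of bile acid synthesis, was at 1.30 RPKM in the control but 0.026 and 0 RPKM in the mutants, below the mean of 1 RPKM needed for the comparison. Of 15 xenobiotic genes 10 were lower and 2 were higher (medians -1.44 and -1.41). *Sult1a1*, a sulfotransferase, was at 538 against 57.6 and 36.8 RPKM and *Adh1*, an alcohol dehydrogenase, at 63.1 against 5.49 and 7.70 RPKM. The higher genes were *Aldh1a1*, which makes retinoic acid, at 63.0 RPKM in the control and 332 and 496 RPKM in the mutants, and the glucuronosyltransferase *Ugt2b34* at 41.3 against 177 and 241 RPKM (*Ugt2b34* named after its values were seen). Both rose by limma, which called 4 xenobiotic genes downward and these 2 upward.

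Fatty acid oxidation and lipid synthesis differed from the groups above in their counts. Of 19 genes of fatty acid oxidation and ketogenesis 2 were lower and none was higher (medians -0.63 and -0.40), and limma called both. The lower genes were 10.5% of this list, beside 8.12% of all compared genes. *Fabp1*, a fatty acid carrier, was at 81.9 against 6.72 and 7.44 RPKM and fell by limma (adjusted p = 0.0337). Of 23 genes of cholesterol and fatty acid synthesis none was lower and 1 was higher (medians 0.43 and 0.03), and limma called 0 members. The higher gene was 4.35% of this list, beside 4.79% of all compared genes.

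**Figure D2:**
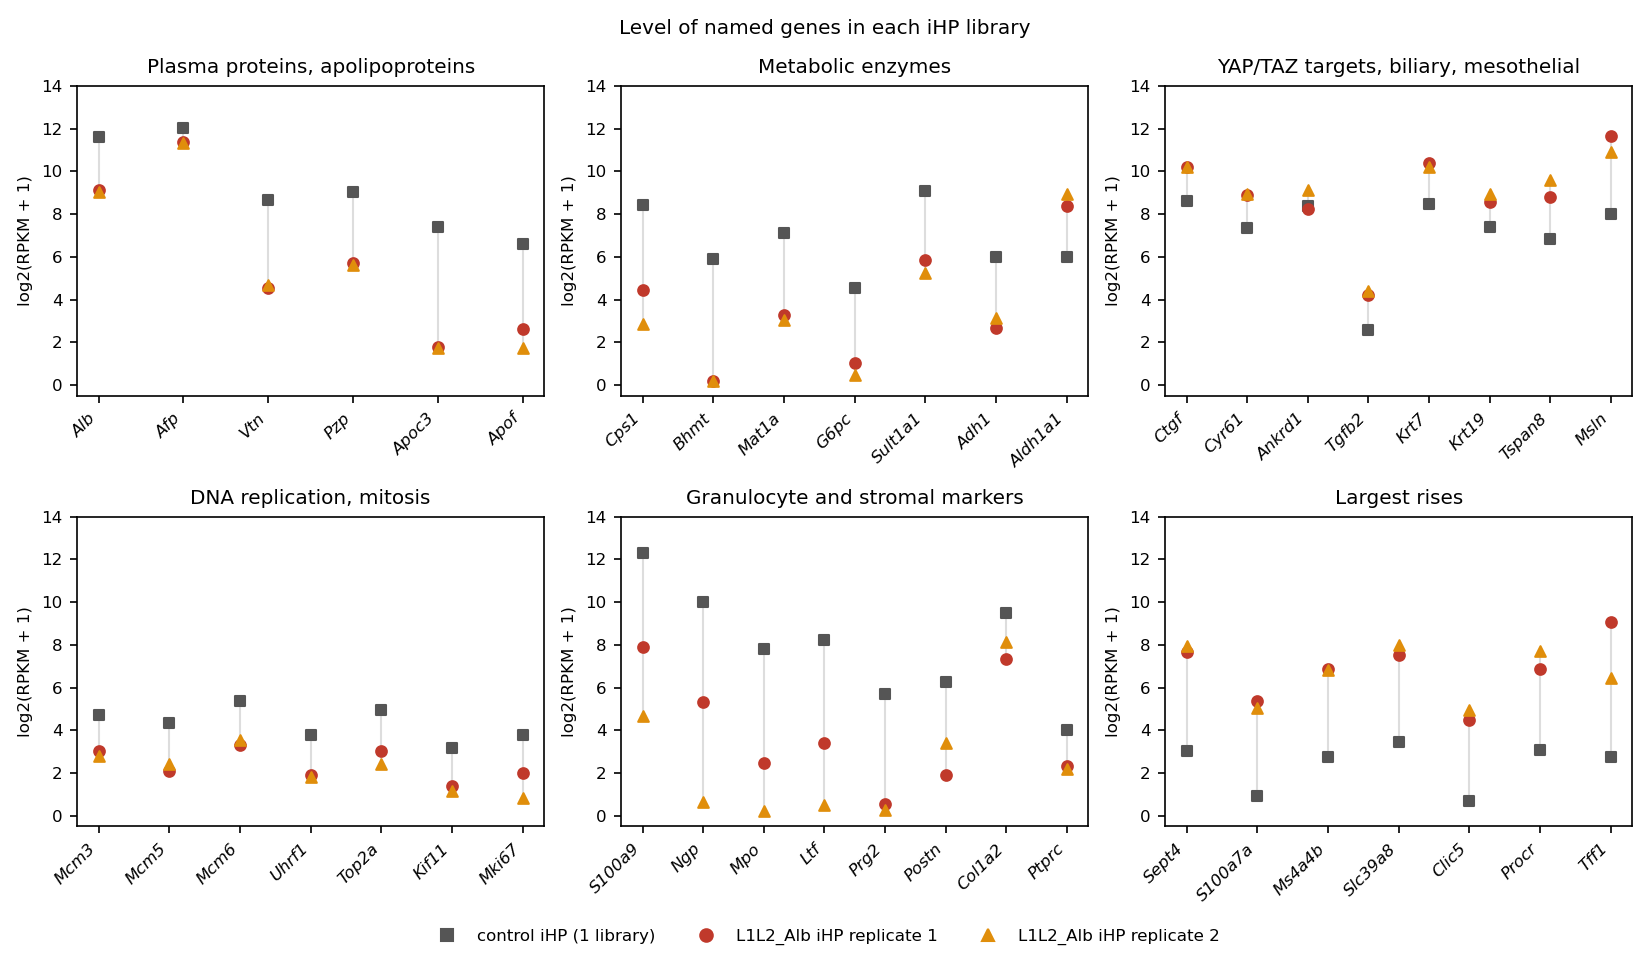
Level of named genes on the log2(RPKM + 1) scale in control iHP (square) and in L1L2_Alb iHP replicate 1 (circle) and 2 (triangle), in 6 panels, with 1 value for each library and no error bar since each is a single library. *Bhmt* and *Apoc3* drop to near the same low level in both mutant libraries, while *Ngp* and *Mpo* differ between them.

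Of the transcription factors that set up the hepatocyte programme, 20 were compared, of which 9 were lower and 2 were higher (medians -1.21 and -1.05). *Hnf4a* read 64.4 RPKM in the iHP control, against 23.7 and 22.4 RPKM in the libraries of L1L2_Alb (mean difference -1.44, SD 0.05, n = 2, adjusted p from limma = 0.0726). It was also lower in each of the other control to mutant pairs, at 48.4 against 20.2 RPKM in iHB and 99.5 against 35.4 and 45.6 RPKM in iBEC. *Onecut1* (HNF6) was at 15.9 against 2.32 and 5.20 RPKM and the nuclear receptor *Nr5a2* at 7.54 against 1.40 and 1.85 RPKM. *Rxra*, the partner of many nuclear receptors, was at 30.01 against 7.30 and 9.47 RPKM and was the only member that limma called (adjusted p = 0.0439). The 2 higher members were endoderm factors, *Gata6* at 15.2 against 63.4 and 34.1 RPKM and *Foxa2* at 10.4 against 26.8 and 36.0 RPKM (*Foxa2* named after its values were seen).

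The genes of oncostatin M signalling and of the acute phase response, which the added cytokine is known to induce, were lower in part. The receptor and kinase genes *Osmr* (26.8 RPKM against 45.4 and 33.2 RPKM), *Il6st* (74.5 against 70.3 and 77.5 RPKM) and *Jak1* (56.1 against 51.6 and 51.1 RPKM) stayed within 1 of the control, as did the feedback inhibitor *Socs3* at 63.7 against 110 and 91.3 RPKM (all 4 named after their values were seen). Of all 24 members 11 were lower and none was higher (medians -1.03 and -1.99). Of the secreted members, *Hamp* (425 against 314 and 405 RPKM), *Lbp* (208 against 256 and 123 RPKM), *Timp1* (469 against 661 and 909 RPKM) and *Saa3* (787 against 837 and 177 RPKM) were neither higher nor lower in both libraries, and these too are named after their values were seen. *Hp* (haptoglobin) was at 6160 RPKM in the iHP control, against 576 and 391.9 RPKM in the libraries of L1L2_Alb, and it fell by limma (mean difference -3.69, SD 0.39, n = 2, adjusted p = 0.0239). *Orm2*, an orosomucoid, was at 318 against 28.0 and 10.9 RPKM and *Serpina3n* at 1398 against 180 and 145 RPKM. In the change from iHB to iHP, the median of the list was 1.12 between the control libraries and 0.63 between the L1L2_Alb libraries, both above the -0.18 and -0.08 of all genes. Against each of the 3 control libraries only *Hp* and *Lcn2* were lower by at least 1, an alternative chosen after seeing the data.

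Known YAP/TAZ targets were the group with the largest count of higher genes relative to its size, after mesothelial markers. Of 19 compared, 9 were higher and 1 was lower (medians 1.06 and 1.105). *Ctgf*, a matricellular protein, was at 387 RPKM in the iHP control, against 1183 and 1168 RPKM in the libraries of L1L2_Alb, and *Cyr61*, of the same family, at 161 against 470 and 495 RPKM. Both mutant libraries lay above the control for both genes, with adjusted p from limma of 0.148 and 0.0907. The genes that rose by limma were *Crim1*, a transmembrane binder of growth factors, at 26.1 against 100 and 113 RPKM (mean difference 1.98, SD 0.12, n = 2, adjusted p = 0.0375), and *Tgfb2*. *Ankrd1* did not follow, at 333 against 303 and 567 RPKM, and *Igfbp3* was lower, at 169 against 83.7 and 36.4 RPKM. Among the 20 genes of the Hippo pathway itself only *Amotl1*, a scaffold that binds YAP, passed in both libraries, at 22.2 against 76.5 and 79.2 RPKM (adjusted p from limma = 0.0368). This was 5.0% of the list, beside 4.79% of all compared genes. *Tead1* was at 9.40 against 17.9 and 34.4 RPKM and *Tead2* at 8.73 against 2.26 and 5.10 RPKM, each past 1 in 1 library only.

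Biliary and progenitor genes went both ways. Of 22 compared, 3 were higher and 7 were lower (medians -0.41 and -0.32, where a mean of at least 5 RPKM turned the median of the mean difference from -0.24 to 0.32). The higher ones were the biliary keratins *Krt7*, at 361 RPKM in the iHP control, against 1361 and 1167 RPKM, and *Krt19*, at 168 against 377 and 493 RPKM, together with the tetraspanin *Tspan8*, at 114 against 452 and 770 RPKM. *Tspan8* rose by limma (mean difference 2.36, SD 0.54, n = 2, adjusted p = 0.0406), while *Krt7* and *Krt19* did not pass it (adjusted p = 0.1 and 0.139). The lower ones included the tight junction claudins *Cldn3*, at 13.9 against 0.816 and 1.90 RPKM, and *Cldn6*, at 21.2 against 6.41 and 8.29 RPKM, and the progenitor marker *Dlk1*, at 5.69 against 0.999 and 1.19 RPKM. *Sox9*, the biliary transcription factor, split the libraries at 8.87, 17.9 and 5.49 RPKM. Mesothelial cells, which line the liver and also make keratins, were read beside these, and 3 of 4 markers compared were higher. *Msln* (mesothelin) was at 255 RPKM in the iHP control, against 3266 and 1925 RPKM in the libraries of L1L2_Alb and rose by limma (mean difference 3.29, SD 0.54, n = 2, adjusted p = 0.0336), *Upk1b* was at 2.26 against 15.8 and 77.8 RPKM and *Wt1* at 3.96 against 10.8 and 9.88 RPKM, whereas *Upk3b* was at 2.97 against 1.65 and 0.6915 RPKM. Summed over all 6 listed mesothelial markers the level was 264 RPKM in the control and 3294 and 2014 RPKM in the mutants, nearly all of it *Msln*, with *Gpm6a* at 0 in replicate 1 and *Lrrn4* at 0 in replicate 2. The part of such cells in the keratin differences was not tested.

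Genes of TGF-beta signalling differed at single members rather than as a group. Of 23 compared, 2 were higher and 3 were lower (medians -0.05 and -0.16). The ligand *Tgfb2* was at 5.07 RPKM in the iHP control, against 17.6 and 20.1 RPKM in the libraries of L1L2_Alb, and rose by limma (mean difference 1.71, SD 0.13, n = 2, adjusted p = 0.0469). The co-receptor *Tgfbr3*, which presents this ligand, was at 2.56 against 23.8 and 23.6 RPKM (mean difference 2.79, SD 0.01, n = 2, adjusted p from limma = 0.0369). Of the products of the pathway, *Fn1* (fibronectin) was at 2859 against 754 and 587 RPKM and *Tgfbi* at 63.2 against 17.8 and 6.27 RPKM, lower in both libraries, while the ligand *Tgfb3* was at 17.2 against 3.99 and 8.94 RPKM. Of 12 Notch pathway genes none was higher and 2 were lower (16.7%, beside 8.12% of all compared genes). The lower genes were the Fringe glycosyltransferases *Lfng* (6.93 against 1.35 and 2.32 RPKM) and *Mfng* (2.57 against 0.739 and 0.768 RPKM). Limma called 0 of the Notch pathway genes. The ligand *Jag1* was at 17.0 against 10.4 and 15.9 RPKM and the receptor *Notch2* at 14.6 against 14.53 and 5.42 RPKM.

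Genes of the p53 pathway leaned upward, and those of cell division downward. Of 26 p53 pathway genes 4 were higher and none was lower (medians 0.45 and 0.74). The higher genes were 15.4% of this list, beside 4.79% of all compared genes, of which 8.12% were lower. *Perp*, a junction protein and p53 target, was at 36.6 RPKM in the iHP control, against 179 and 404 RPKM in the libraries of L1L2_Alb, and *Ccng1*, a cyclin G induced by p53, at 37.8 against 115 and 174 RPKM. Both rose by limma (adjusted p = 0.0411 and 0.0492). The death receptor *Tnfrsf10b* was at 10.02 against 29.7 and 44.1 RPKM and the polymerase *Polk* at 6.42 against 15.2 and 28.4 RPKM, and replicate 2 lay above replicate 1 for all 4. *Cdkn1a*, which encodes the cell cycle inhibitor p21, was at 130 against 226 and 300 RPKM, and *Trp53* itself at 57.0 against 38.5 and 21.8 RPKM (*Trp53* named after its values were seen).

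Of 35 DNA replication genes 16 were lower and 1 was higher (medians -1.19 and -1.16), and 34 had a mean difference below 0. The helicase subunits were among them, with *Mcm6* at 40.3 RPKM in the iHP control, against 8.84 and 10.7 RPKM in the libraries of L1L2_Alb (mean difference -1.95, SD 0.18, n = 2, adjusted p from limma = 0.0375) and *Mcm5* at 19.2 against 3.30 and 4.32 RPKM (adjusted p = 0.0481). *Uhrf1*, which guides maintenance of DNA methylation, fell from 12.9 to 2.81 and 2.49 RPKM (adjusted p from limma = 0.0401). The higher gene was *Rrm2*, the small subunit of ribonucleotide reductase, at 50.7 against 107 and 122 RPKM (named after its values were seen). Of 27 mitosis genes 19 were lower and none was higher (medians -1.28 and -1.71). *Top2a*, the topoisomerase of dividing cells, was at 29.9 against 7.22 and 4.40 RPKM (adjusted p from limma = 0.0304), *Kif11* at 8.05 against 1.59 and 1.23 RPKM and the proliferation marker *Mki67* at 12.8 against 2.94 and 0.778 RPKM. Measured against each of the 3 control libraries, 15 mitosis genes and 5 replication genes remained lower by at least 1 in both mutants. Markers of blood and stromal cells, given next, moved in the same direction, and their part in the cell division genes was not tested.

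Genes of other cell types in the dish differed strongly. In bulk RNA, fewer cells of a type and less RNA per cell cannot be told apart. All 11 granulocyte and mast cell markers were lower, with medians of -4.69 and -7.23 and a summed level of 10010 RPKM in the iHP control against 462 and 51.6 RPKM in the mutants (*Cpa3* at 0 in both, *Elane* at 0 in replicate 2). The most abundant were the neutrophil proteins *S100a9*, at 5040, 236 and 24.1 RPKM, *S100a8*, at 2904, 161 and 18.3 RPKM, and in control iHP *Ngp*, at 1017, 38.4 and 0.566 RPKM. Limma called 5 of the 11. In iHB the same markers summed to 14789 RPKM in the control and 4724 RPKM in the mutant, and in iBEC to 3272 RPKM in the control and 117 and 2614 RPKM in the mutants, so that 1 iBEC mutant lay near its control. Against all 3 controls 9 of 11 were lower in the iHP mutants. Of 10 fibroblast and stellate markers 9 were lower, with a sum of 2530 RPKM against 671 and 1055 RPKM (*Reln* at 0 in replicate 2). *Postn* (periostin) fell from 75.8 to 2.75 and 9.76 RPKM (adjusted p from limma = 0.0292), and *Col1a2* was at 722 against 161 and 279 RPKM. All 4 erythroid markers compared were lower, with a sum over 10 of 170 against 13.7 and 32.4 RPKM, but globin paralogues share reads and cannot be taken one by one.

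Macrophage markers were less uniform than those of granulocytes. Of 12 compared, 4 were lower and none was higher, with a sum of 1976 RPKM in control iHP, 941 RPKM in replicate 1 and 1885 RPKM in replicate 2 (*Clec4f*, the Kupffer cell lectin, was at 0 in the control). The leukocyte phosphatase *Ptprc* (CD45) fell from 14.9 to 4.00 and 3.59 RPKM (adjusted p from limma = 0.0436), whereas the complement genes *C1qa*, *C1qb* and *C1qc* of macrophages were at 173 to 185 RPKM in the control, 85.8 to 87.5 RPKM in replicate 1 and 199 to 206 RPKM in replicate 2 (named after their values were seen). Endothelial markers were near absent in all 3 libraries, with sums of 12.2, 7.69 and 16.2 RPKM over 10 genes. *Pecam1* fell from 4.18 to 0.339 and 0.2435 RPKM (adjusted p from limma = 0.045), 1 of 5 compared was higher and 1 lower, and *Stab2* and *Emcn* were at 0 in replicate 2.

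The remaining lists had at most 4 members lower and 2 higher. Over all genes 8.12% were lower and 4.79% higher. Lower members were 22.2% of the contractile list, 21.4% of the chemokines and 16.7% of the interferon list. They were 5.56% of the epithelial-mesenchymal list and 0% of the NRF2 list. Higher members were 11.1% of the epithelial-mesenchymal, 5.88% of the NRF2 and 5.56% of the contractile list. Of 17 NRF2 antioxidant genes 1 was higher (*Me1*, malic enzyme, 47.1 against 97.1 and 130 RPKM) and none was lower (medians 0.41 and 0.07). Of 18 interferon and antigen processing genes 3 were lower and none was higher (medians -0.45 and -0.77), among them the immunoproteasome subunits *Psmb8* (13.9 against 4.70 and 6.22 RPKM) and *Psmb9* (8.78 against 2.02 and 2.85 RPKM). Of 14 chemokine genes 3 were lower and none was higher (medians -0.70 and -0.75). *Cxcl12*, the stromal chemokine, was at 23.1 against 3.95 and 1.96 RPKM. Of 18 contractile and actin genes 4 were lower and 1 was higher (medians -0.17 and -0.51), with smooth muscle actin *Acta2* at 439 against 76.2 and 154 RPKM on the lower side and the actin crosslinker *Actn1* at 201 against 508 and 531 RPKM on the higher side. Of 18 epithelial-mesenchymal genes 2 were higher and 1 was lower, with *Vim* (vimentin) at 551 against 1249 and 1705 RPKM, and limma called 1 member upward. Limma called 0 members in the NRF2, interferon, chemokine and contractile lists.

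**Figure D3:**
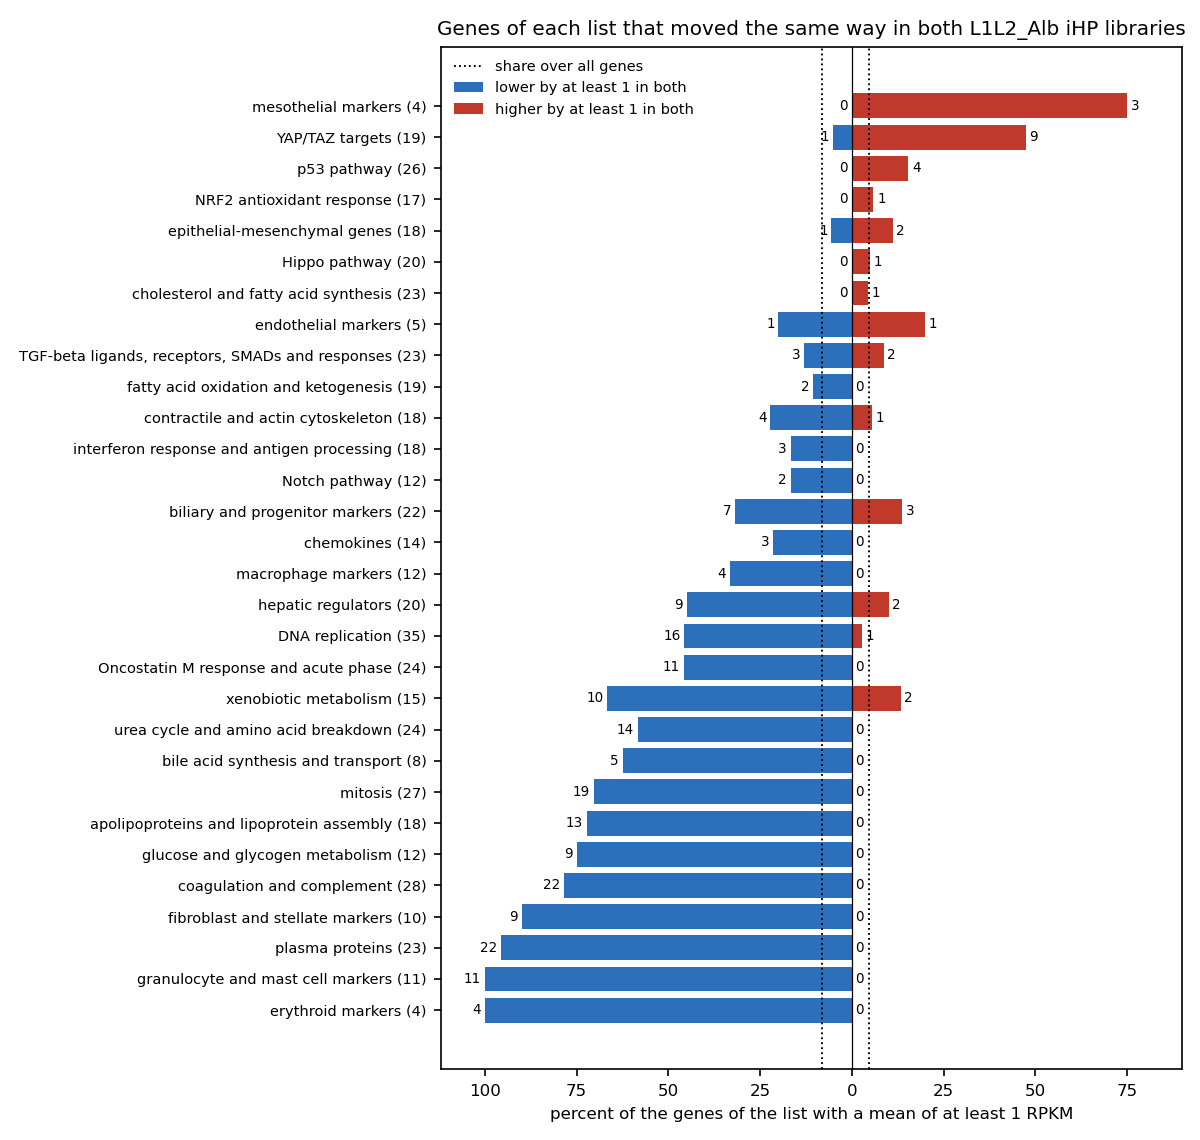
For each of the 30 gene lists, the percent of compared members (number in brackets) that were lower (left bars) or higher (right bars) by at least 1 in both L1L2_Alb iHP libraries, with the counts at the bar ends and dotted lines at the 8.12% and 4.79% of all genes. Bars of plasma proteins (22 of 23 lower) and granulocyte markers (11 of 11) are near the bottom, and those of YAP/TAZ targets (9 of 19 higher) near the top.

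The L1L2_Alb libraries disagreed on few genes in direction and on more in size. By at least 1, 7 genes (0.0535%) went opposite ways, 5 higher in replicate 1 and lower in replicate 2 and 2 the reverse. The chemokine *Cxcl13* was at 7.26 RPKM in control iHP, 34.5 in replicate 1 and 0 in replicate 2, and *Cxcl3*, which attracts neutrophils, at 1.02, 12.9 and 0 RPKM. *Ivl*, a protein of the cornified envelope, was at 24.5, 73.0 and 6.76 RPKM, the zinc exporter *Slc30a1* at 4.64, 14.4 and 1.40 RPKM and *Xlr3a* at 3.19, 11.8 and 0.969 RPKM. The reverse pair was *Gm15441*, at 78.3, 37.0 and 164 RPKM, and *Cdkn2d*, a cyclin-dependent kinase inhibitor, at 14.1, 6.32 and 30.5 RPKM. The libraries were at least 2 apart on 165 genes (1.26%), with replicate 2 above on 32 and below on 133. Over all genes the difference between them had an SD of 0.70 and a median absolute size of 0.43.

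Among the genes furthest apart between the replicates were sex-linked and myeloid ones. Apart from *Xist* and *Eif2s3y*, the Y-linked helicase *Ddx3y* was at 14.3, 0 and 28.1 RPKM in control iHP, replicate 1 and replicate 2. The inflammatory myeloid genes *Irg1*, which makes itaconate, at 19.0, 20.2 and 0 RPKM, and *Cxcl2*, at 18.7, 28.2 and 0.433 RPKM, were close to the control in replicate 1 and near 0 in replicate 2. *Fcna*, a ficolin of macrophages, went the other way, at 13.3, 13.01 and 125 RPKM, as did *1600029D21Rik* at 5.71, 10.6 and 109 RPKM and *Lars2*, a mitochondrial leucyl-tRNA synthetase, at 97.6, 81.8 and 794 RPKM. In iBEC, *Lars2* was at 743 RPKM in the control and 475 and 679 RPKM in the mutants.

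**Figure D4:**
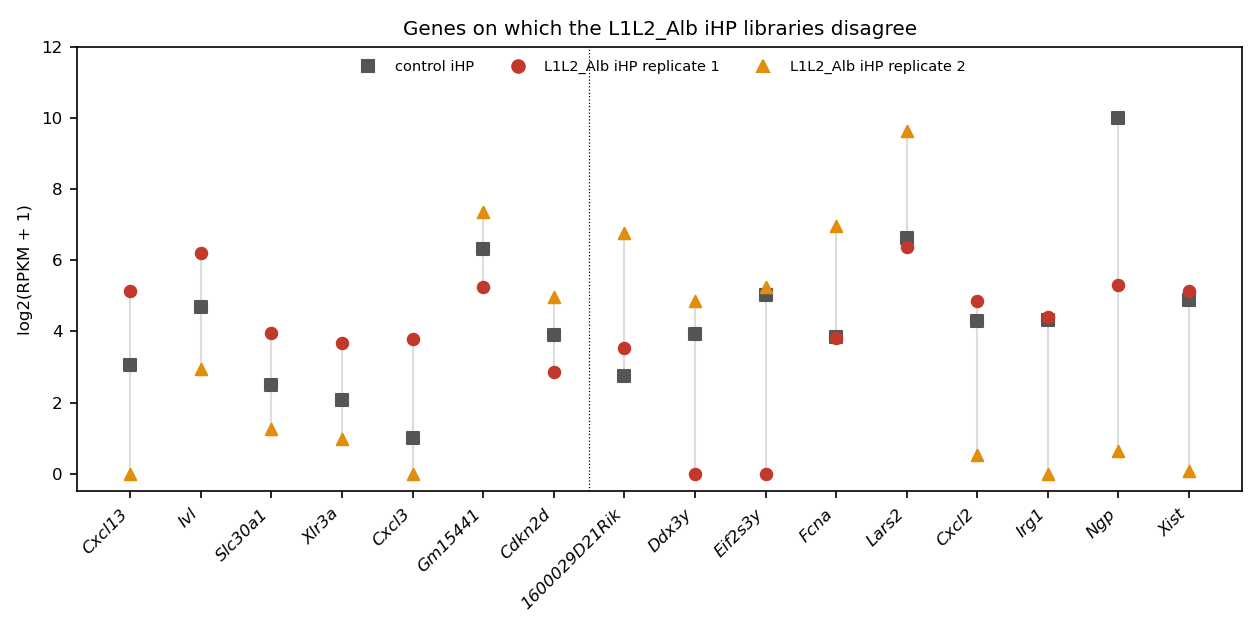
Levels on the log2(RPKM + 1) scale in control iHP (square), L1L2_Alb iHP replicate 1 (circle) and replicate 2 (triangle) of the 7 genes that went opposite ways (left of the dotted line) and of 9 further genes among those furthest apart at a mean of 5 RPKM or more. *Xist* and *Irg1* are near 0 in replicate 2 only, *Ddx3y* and *Eif2s3y* are at 0 in replicate 1 only.

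Each stage had a control library of its own, so the direction of the iHP differences could be read in iHB and iBEC without sharing a control library. Whether the stages shared embryos or cells was not tested. The Y-linked *Eif2s3y* read 34.6 RPKM in the iHB control, near the 31.3 RPKM of the iHP control. It was at 0 in L1L2_Alb iHB, like L1L2_Alb iHP replicate 1 and unlike replicate 2 (37.3 RPKM). The counts shared with iHB are therefore not taken as independent of the iHP libraries. Of the 627 genes higher in iHP, 399 (63.6%) were higher by at least 1 in the single L1L2_Alb iHB library, against 5.74% of all compared genes, and 251 of the 627 were higher in both iBEC libraries, against 4.08% of all compared genes. Of the 1063 lower genes, 691 (65.0%) were lower in iHB, against 8.76%, but 131 (12.3%) were lower in both iBEC libraries, against 1.31%. In all 3 stages 210 genes were higher and 107 lower. *Sept4* in iHBs was at 15.1 RPKM without and 458 RPKM with the deletions, whereas iBECs had 1.14 RPKM in the control and 13.9 and 19.5 RPKM in the mutants. *Msln* and *Krt7* were likewise higher in every mutant library of every stage, *Krt7* at 400 against 1470 RPKM in iHB and 62.3 against 319 and 568 RPKM in iBEC.

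The hepatocyte lists differed in how the stages compared. The plasma protein list had medians of -3.38 in iHB, -2.50 in iHP and -1.69 in iBEC, and the glucose list -1.48, -2.17 and -0.42. For coagulation and complement, at -1.28, -1.83 and -1.38, and for the oncostatin M and acute phase list, at -0.65, -1.39 and -1.003, the median in iBEC lay below that in iHB. *Alb* was at 2485 against 524 RPKM in iHB but at 6162 against 5499 and 3357 RPKM in iBEC, and *Cps1* at 85.0 against 2.24 RPKM in iHB and 123 against 233 and 80.4 RPKM in iBEC. *Apoc3* was at 25.7 against 1.66 RPKM in iHB and 266 against 408 and 189 RPKM in iBEC. Between stages, plasma protein genes had a median 0.94 above iHB in control iHP, and 1.97 above the L1L2_Alb iHB in the L1L2_Alb iHPs. Cell division genes showed a like pattern, with mitosis medians of -1.15, -1.54 and -0.49 in iHB, iHP and iBEC, while YAP/TAZ targets were at 0.60, 1.11 and 1.17. Whether the iHP difference departs from the mean of the other stages was tested by limma, which called 0 genes (451 at an unadjusted p under 0.05, smallest adjusted p 0.213, that of *Pogz*). With 2 residual degrees of freedom and 1 control library in each stage, these differences between stages are descriptions.

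**Figure D5:**
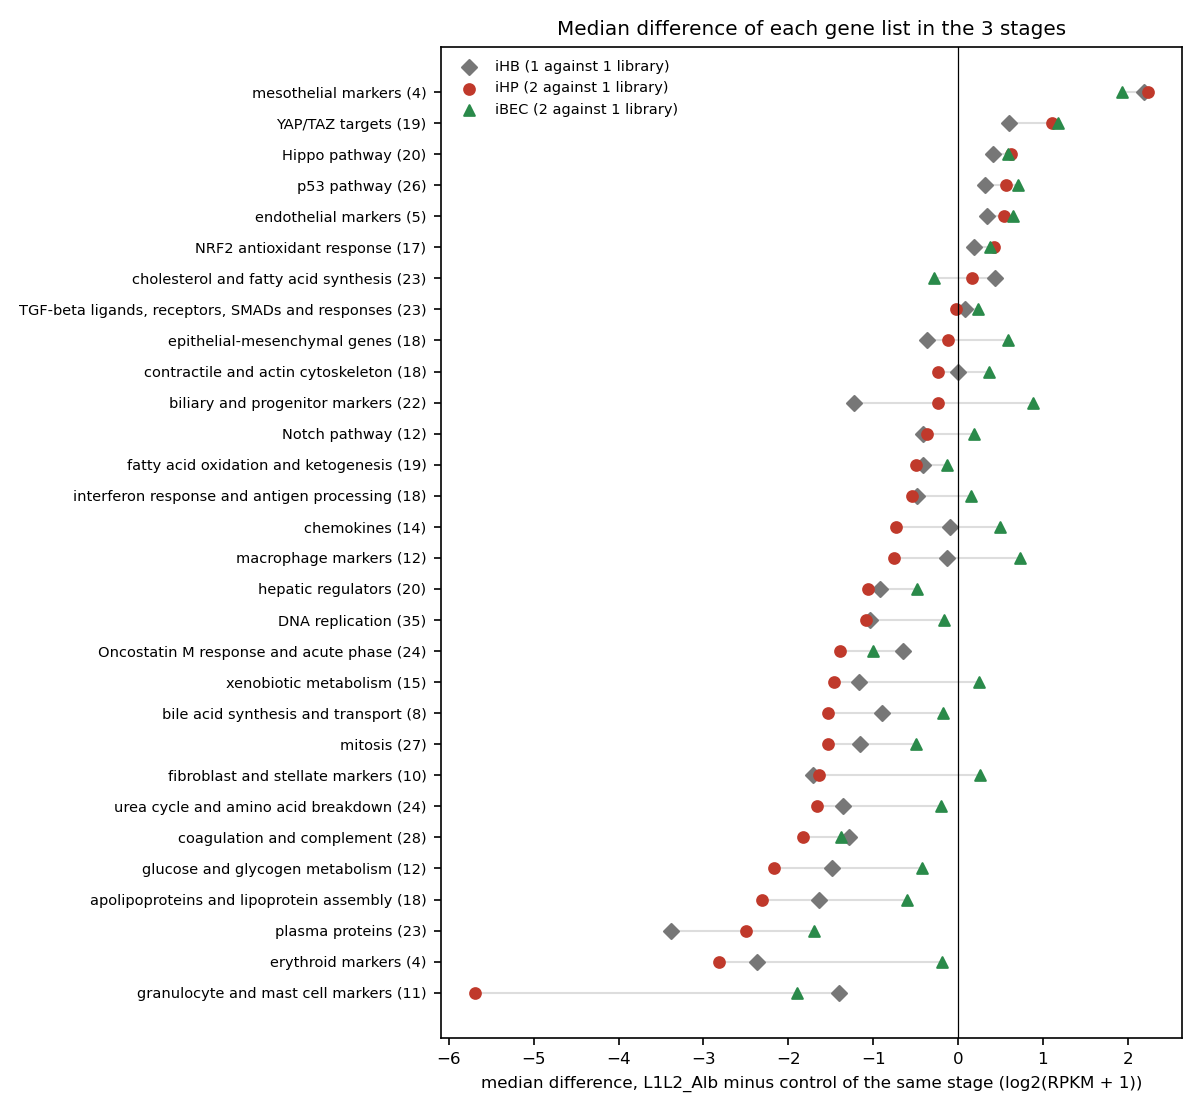
Median difference of each gene list, L1L2_Alb minus the control of the same stage, on the log2(RPKM + 1) scale, in iHB (diamond), iHP (circle) and iBEC (triangle), with the number of compared genes in brackets. Plasma proteins lie at -3.38, -2.50 and -1.69, and biliary and progenitor markers at -1.22 in iHB, -0.24 in iHP and 0.88 in iBEC.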

How the data were processed

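RNA of 3 iHP libraries, and of 5 libraries of the other culture stages for context, had been sequenced after TruSeq RNA v2 preparation. The authors deposited 1 table of RPKM per gene and library. The submitters' processing notes name Bowtie 0.12.2 and the mm8 genome, while the counting program and the annotation are not given in the sources used here. The values are not counts, so no count model was run. Depth was recovered from short RNA genes (up to 400 bases), whose values changed in whole steps, and 91.5% to 93.5% of their values under 20 reads in the iHP libraries were whole within 0.02 of a read. With 3 reads as a floor, 2 kb of transcript would read 0.0536 to 0.0814 RPKM in these libraries.

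Values were changed to log2(RPKM + 1), and 4 entries of repeated symbols were left out of 23471. Genes that reached 1 RPKM on average in the 3 iHP libraries were compared, each L1L2_Alb library with the 1 control. The fit was limma 3.58.1 in R 4.3.3 (lmFit and eBayes with trend) on 6 condition means in 8 libraries, which leaves 2 residual degrees of freedom, with Benjamini-Hochberg adjustment over 13086 genes and two-sided p-values. Tables and figures used Python 3.11.15, numpy 2.4.6, pandas 2.3.3 and matplotlib 3.10.9. In simulated data for the iHP contrast with 200 of 13086 genes changed, limma recovered 90% of the genes given a log2 change of 4, 18% of those given 2 and 0% of those given 1, with 11 of 12886 unchanged genes called. With nothing changed it called 0. The simulated spread of each gene was drawn from the distribution that limma fitted to the L1L2_Alb pairs, and it was the same in the control libraries. The simulation therefore cannot test whether the control varies like those pairs.

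The groups, the 30 gene lists (593 symbols, 1 not in the table) and the rules were chosen with earlier results of these data known. Named genes were the 10 largest rises and 10 largest decreases by the smaller of the 2 differences, the genes on which the libraries disagree most, up to 6 genes of each list by the size of the mean difference, and 18 genes named in any case. Others, among them genes at the edge of the threshold, genes that tell libraries apart, genes at 0 and *Lcn2*, were named after their values were seen. All columns of the table belonged to samples of the series (0 did not). Methods of the study state another length for the oncostatin M culture than the labels, whose 5 days are given here. Promoters were not cut by the build of the files, which differs from GRCm38.p6, and no coordinates of the files were used. The alternatives were another pseudocount, scalings, filters, thresholds and leaving out libraries. Results of some genes are not reported here.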

Additional observations from a re-analysis of the deposited data

Results flagged for a closer look

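The iHP and iBEC cultures differed in opposite directions, relative to the control of each, in 19 genes that were lower by at least 1 in both L1L2_Alb iHP libraries and higher by at least 1 in both L1L2_Alb iBEC libraries. Against 4.08% of all compared genes that were higher in both iBEC libraries, these are 1.79% of the 1063 genes lower in iHP. Among them, *Adh1* had a mean difference of -3.09 in iHP and 1.26 in iBEC, with 63.1 RPKM in the iHP control and 5.49 and 7.70 RPKM in its mutants, and 34.4 RPKM in control iBEC against 91.0 and 76.8 RPKM. The claudin *Cldn6* had -1.42 in iHP and 2.29 in iBEC, where the control held 1.08 RPKM and the mutants 9.49 and 8.86 RPKM. The glucose transporter *Slc2a2* had -2.69 in iHP and 1.75 in iBEC, where the control held 0.984 RPKM and the mutants 10.1 and 3.00 RPKM. In iHB, all 3 were lower in the 1 mutant library than in the control, as in iHP. The opposite directions were chosen by these values, and the difference between iHP and iBEC alone was not tested. A limma test of iHP against the mean of both other stages gave adjusted p of 0.961 for *Adh1* and 0.999 for *Cldn6* and *Slc2a2*. *Cgn*, 1 of the neighbouring genes that read high in the control iHP library, was also among the 19, at 614 RPKM in control iHP. So were *Mir467a-10*, *Mir467a-3* and *Mir467a-6*, whose values were identical in every library, so that they are not separate cases.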

How the results depend on the processing

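The counts of 627 higher and 1063 lower genes kept within 1.5 times under a pseudocount of 0.1 (825 and 1276), upper-quartile scaling (516 and 1178), quantile normalization (706 and 914) and no filter on low values (631 and 1188). Upper-quartile scaling moved the median difference of all genes from 0.0087 to -0.0961. Among the 9440 genes that averaged 5 RPKM or more, 544 were higher and 587 lower. The count of lower genes thus changed more than that of higher genes. Higher genes made up 48.1% of those that passed the threshold either way, against 37.1% as reported. A difference of at least 2 left 117 and 314, and the requirement of a difference from each of the 3 control libraries, added after seeing the data, left 352 and 426. Leaving out either L1L2_Alb iHP library, so that the other alone decided, gave 918 to 1482 higher and 1406 to 1976 lower genes. With a pseudocount of 0.1 the libraries went opposite ways on 28 genes in place of 7 and were at least 2 apart on 429 in place of 165, while the other settings gave 5 to 7 and 125 to 165. Between 11 and 15 lists had a median of -1 or lower, 14 as reported and 14 to 15 with either library left out. The sign of the list median turned for 4 lists (Notch, TGF-beta, biliary, epithelial-mesenchymal) with a mean of at least 5 RPKM, for the endothelial and epithelial-mesenchymal lists without the filter and for the latter with quantile normalization. Limma called 500 genes as reported, 0 without the filter (3041 at an unadjusted p under 0.05), 0 to 673 when a library was left out, 0 of these without L1L2_Alb iHP replicate 2, and 381 to 696 under the other settings. Of the 77 named genes it called, 25 were lost without L1L2_Alb iHP replicate 1. The test of iHP against the other stages called 0 genes, but 14 without L1L2_Alb iBEC replicate 1 and 7 without replicate 2 (0 to 14 over all left-out libraries). No paired analysis was possible because each stage has 1 control library, so the groups compared share fewer than 2 replicate numbers. The cause of these shifts was not tested. Depth limits what can be said of *Cyp7a1* and other genes with a few reads.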

Other observations

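Gene families read from their symbols, chosen after their values were seen, showed further differences in iHP. Over all compared genes 4.79% were higher and 8.12% lower. Of 12 keratin genes 5 were higher and none was lower (medians 1.22 and 0.82), and of 10 annexins 5 were higher and none was lower (0.51 and 0.92). Of 9 *Serpinb* genes, the intracellular protease inhibitors, 4 were higher and 1 was lower, whereas of 16 *Serpina* genes, the secreted inhibitors of plasma, 11 were lower and none was higher (medians -2.16 and -2.36). Of 35 cytochrome P450 genes 19 were lower and none was higher, and of 11 glucuronosyltransferases 8 were lower and 1 was higher. Of 26 collagen genes 13 were lower and none was higher (medians -1.33 and -1.14), and of 42 histone genes 12 were higher and none was lower (0.76 and 1.24). In *Klra*, 4 of 7 were higher, but these receptors are near-identical copies whose reads can be split between them, and the same holds within *Serpina* and the P450 genes. It may also hold within the histone genes, so their count need not be of separate cases, which was not tested.

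In the control iHP library 5 genes that neighbour each other in RefSeq GRCm38.p6 were above every other library, with *Selenbp2* at 869 RPKM (at most 119 in the other 7), *Cgn* at 614 (at most 105), *Pogz* at 337 (at most 12.3), *Psmb4* at 1187 (at most 286) and *Selenbp1* at 1495 (at most 570). The genes around them were not, with *BC021767* at 16.3 RPKM, *Tuft1* at 96.7 RPKM and *Rfx5* at 3.30 RPKM, all within the range of the other libraries. Each of the 5 was noticed after its values were seen, and each of their iHP differences rests on this 1 library.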
